A study of Homo sapiens with 21 samples.

Results

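The 30 genes described here encode the enzymes of cholesterol synthesis, the proteins that sense sterols, and the proteins that take up, store and export cholesterol. They were chosen by their known function, with earlier results of these data in view, and matched by gene identifier to 30 of the 42339 genes counted in 21 RNA-seq libraries of BT-549 cells. By role they divide into 7 genes of the mevalonate arm, 11 of the squalene and sterol arm, 4 sensing genes, 5 genes of uptake, lysosome and transport, 1 storage gene and 2 export genes.

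BT-549 is an established triple-negative breast cancer (TNBC) line of mesenchymal character, labelled wild type (WT) in the titles of the 2D libraries. Each of 7 groups had 3 libraries from triplicate cultures. 2D cells grew as a monolayer in RPMI1640 with serum and insulin, whereas 3D cells were passage 6 mammospheres in MammoCult medium on low-attachment plates, so growth format, medium and passage cannot be told apart. A further group of passage 6 mammospheres received 0.75 µmol/L GO-203, a peptide inhibitor of the MUC1-C subunit, and was compared with the same 3D control libraries that served against 2D cells. The tet-MUC1shRNA mammospheres (passage 6) and the tet-MYCshRNA mammospheres (passage 8 by their titles, though the study's text gives passage 6 for that line) carried an inducible hairpin, 1 per gene, and received 0.1% DMSO as vehicle or 500 ng/ml doxycycline (DOX) to induce it. No library here had DOX without a hairpin against MUC1 or MYC, so an effect of DOX itself and of silencing cannot be told apart. The labels give no treatment times, though a figure legend of the study gives one for the tet-MUC1shRNA line.

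Cholesterol is built in the endoplasmic reticulum from acetyl-CoA, first along the mevalonate arm to farnesyl diphosphate and then through squalene and lanosterol to the finished sterol. When membrane sterol is low, SCAP escorts the precursor of the transcription factor SREBF2 to the Golgi, where it is cleaved and freed to switch on synthesis and uptake genes. When sterol is ample, the INSIG proteins hold SCAP back, and oxysterols activate the LXR receptors, whose targets include ABCA1, ABCG1 and MYLIP.

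Total counts ranged from 38026597 to 99751717 per library, and levels are given as CPM, counts relative to the size of the library after TMM scaling over all 21 libraries. A gene counted as called when its adjusted p was below 0.1 and its fold change exceeded 1.5 either way in edgeR's quasi-likelihood test with Benjamini-Hochberg adjustment over all genes tested. MUC1, the silenced gene, lay at 83.1 to 101 CPM with vehicle and at 19.7 to 23.3 CPM with DOX in the tet-MUC1shRNA line (log2 fold change -2.06). MYC lay at 386 to 439 CPM with vehicle and at 244 to 297 CPM with DOX in the tet-MYCshRNA line, a smaller fall of the targeted gene (log2 fold change -0.62). The mesenchymal marker VIM was at 1080 CPM or more in every library, while ESR1, PGR, CDH1 and EPCAM stayed at or below 1.51 CPM. The other mesenchymal markers were lower in 3D than in 2D cells, CDH2 at 50.3 to 52.0 against 430 to 452 CPM and SPARC at 274 to 296 against 4040 to 4680 CPM. The leukocyte marker PTPRC was at 1.03 to 1.49 CPM in 2D cells and at most 0.157 CPM in the other groups. The endothelial marker PECAM1 was at 0 to 0.0342 CPM in 2D cells and at 2.59 to 10.0 CPM in every mammosphere library, and the part of these markers in the 3D vs. 2D results was not tested.

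Promoters of 4 members called lower on MUC1 silencing, and that of SREBF2, which was not called, are shown because a short motif recurs in them. The table of RefSeq promoters (GRCh38.p14; 250 bases before to 50 after a start) held windows for 26 of the 30 members. In the lines below, capitals mark the CCAAT box (CCAAT, or ATTGG on the other strand) and, in SREBF2 alone, the sterol regulatory element TCACNCCAC. Each stretch begins 200 bases before the start and ends before the transcribed part of the gene.
SREBF2: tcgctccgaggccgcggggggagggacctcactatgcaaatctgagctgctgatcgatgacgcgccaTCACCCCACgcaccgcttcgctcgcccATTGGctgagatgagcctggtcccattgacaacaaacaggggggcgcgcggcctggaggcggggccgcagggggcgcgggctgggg
INSIG1: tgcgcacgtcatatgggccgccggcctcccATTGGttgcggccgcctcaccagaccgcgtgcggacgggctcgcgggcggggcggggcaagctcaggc
HMGCS1: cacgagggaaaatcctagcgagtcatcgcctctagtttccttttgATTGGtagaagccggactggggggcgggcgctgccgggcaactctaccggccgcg
MSMO1: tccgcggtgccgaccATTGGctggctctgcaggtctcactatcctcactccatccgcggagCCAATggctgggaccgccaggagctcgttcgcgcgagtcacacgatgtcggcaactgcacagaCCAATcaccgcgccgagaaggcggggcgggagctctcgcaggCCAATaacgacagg
MVD: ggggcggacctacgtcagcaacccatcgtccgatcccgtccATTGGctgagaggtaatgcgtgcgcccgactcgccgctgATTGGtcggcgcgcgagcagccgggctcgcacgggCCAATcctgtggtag
The stretches lie at chr22:41832905-41833084 on the plus strand (SREBF2, where an exon of the antisense transcript SREBF2-AS1 also lies), chr7:155297678-155297775 plus (INSIG1), chr5:43313513-43313612 minus (HMGCS1), chr4:165327469-165327648 plus (MSMO1) and chr16:88663162-88663291 minus (MVD). The MSMO1 stretch holds 4 CCAAT boxes, that of MVD 3, and those of SREBF2, INSIG1 and HMGCS1 1 each.

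Searched on both strands, the CCAAT box occurred in 65.7% of the 35 windows of members and in 34.6% of all 35116 promoter windows of the same length. The E-box CACGTG occurred in 17.1% of members' windows and in 7.26% of all. The exact sterol element occurred in 1 member window, that of SREBF2, and in 1.13% of all windows. These are matches of letters and not shown binding sites, and windows of a gene can overlap. The 5 promoters were chosen for printing after the values were seen.

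In 3D vs. 2D cells most cholesterol genes were higher. Of the 29 members tested, 20 were called higher and 1 lower, where 17.9% of the 19190 genes tested were called higher and 21.1% lower. The median log2 fold change was 1.02 over the members and -0.01 over all genes. By role, 6 of 7 genes of the mevalonate arm, 9 of 11 of the squalene and sterol arm, 2 of 4 sensing genes, 2 of 5 genes of uptake and transport, and ABCA1 were higher.

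**Figure D1:**
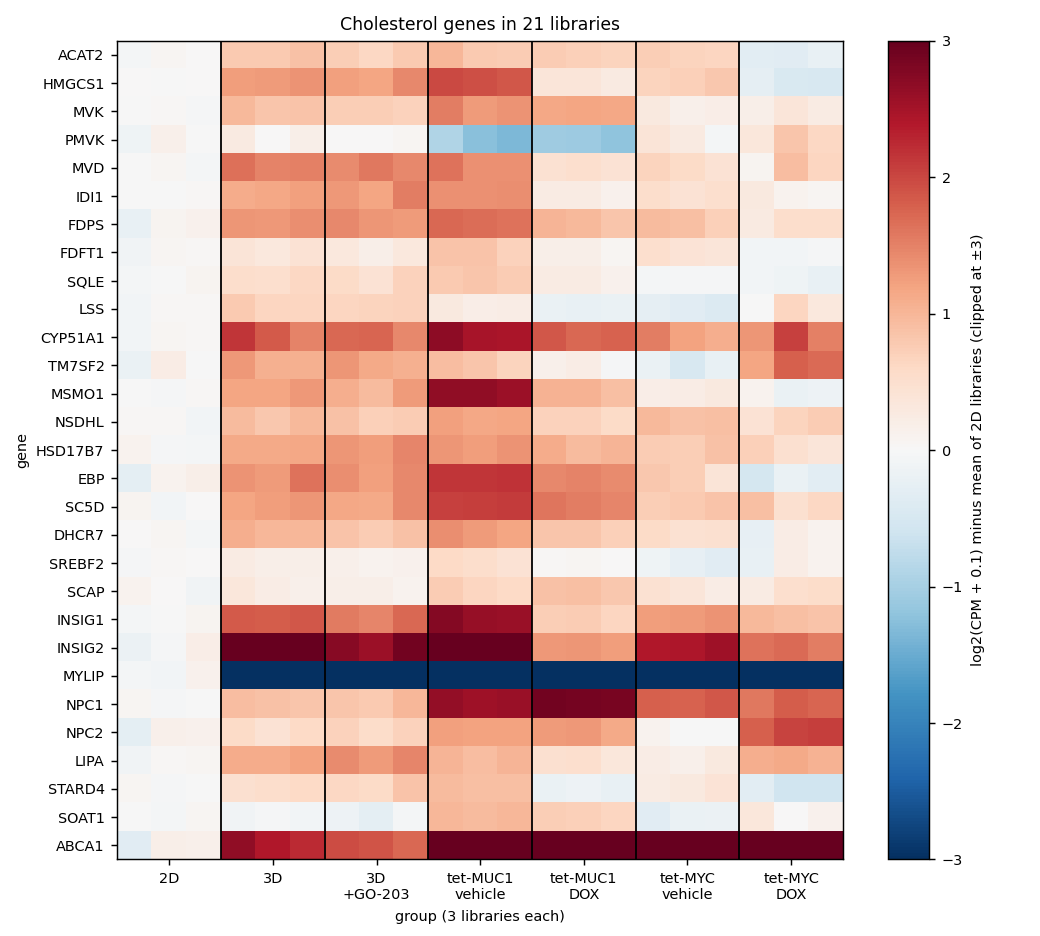
Level of 29 members in 21 libraries, as log2(CPM + 0.1) minus the mean of the 3 2D libraries (red higher, blue lower, clipped at 3 either way), with genes in rows ordered by role and groups in columns. Most synthesis genes were higher in 3D cells than in 2D cells, MYLIP was lower in every mammosphere library, and INSIG1, INSIG2, HMGCS1 and MSMO1 were paler with DOX than with vehicle in the tet-MUC1shRNA line.

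INSIG1 and INSIG2, the endoplasmic reticulum proteins that hold back SCAP, were among the most changed. INSIG2 was at 5.21, 5.79 and 6.85 CPM in the 2D libraries and at 48.6, 48.6 and 50.9 CPM in the 3D libraries. This was a log2 fold change of 3.04 (SE 0.093, adjusted p = 6.9e-14, edgeR's quasi-likelihood test), or 8.23-fold, with groups far apart. INSIG1 was at 305, 312 and 332 CPM in 2D cells and at 1130, 1110 and 1150 CPM in 3D cells (log2 fold change 1.83, SE 0.053, adjusted p = 3.3e-14 by the same test). The other sensing genes changed less. The log2 fold change of SREBF2, the transcription factor itself, was 0.20 with an adjusted p of 0.0053, and that of SCAP was 0.23 with an adjusted p of 0.0113 (edgeR), both under the fold minimum.

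MVD, which makes isopentenyl diphosphate from mevalonate diphosphate, rose from 28.4, 29.8 and 27.3 CPM in 2D cells to 89.1, 79.6 and 81.9 CPM in 3D cells (log2 fold change 1.55, SE 0.066, adjusted p = 4.9e-12, edgeR). HMGCS1, which commits acetyl units to the pathway, rose from 238 ± 3.11 to 584 ± 18.4 CPM (SD, n = 3), and FDPS, the farnesyl diphosphate synthase, from 36.8 ± 4.57 to 92.8 ± 2.93 CPM. The other called genes of this arm were the thiolase ACAT2 (log2 fold change 0.81), the mevalonate kinase MVK (0.88) and the isomerase IDI1 (1.16). PMVK, the next kinase, was not called (log2 fold change 0.16, adjusted p = 0.229, edgeR). FDPS has 8 named pseudogenes and IDI1 has 3, and how reads shared with such copies were counted is not given in the sources used here.

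In the sterol arm CYP51A1, the lanosterol demethylase, was at 2.37, 2.64 and 2.58 CPM in 2D cells and at 11.6, 9.33 and 7.27 CPM in 3D cells (log2 fold change 1.88, SE 0.17, adjusted p = 6.9e-08, edgeR). The 3D values spread widely but stayed above all 2D values. In GENCODE release 44, 68.2% of CYP51A1's exon bases and 36.4% of those of EBP lie in a further gene on the same strand, so the levels of these genes are uncertain. EBP, a sterol isomerase, had a log2 fold change of 1.42, SC5D, a desaturase, 1.25, MSMO1, a methyl oxidase, 1.21, and the reductases HSD17B7, TM7SF2 and DHCR7 1.15, 1.14 and 1.02. The sterol dehydrogenase NSDHL (0.91) and the lanosterol synthase LSS (0.69) were also called. The squalene synthase FDFT1 (0.37) and the squalene epoxidase SQLE (0.54) passed the adjusted p but not the fold minimum.

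MYLIP, a ubiquitin ligase that sends lipoprotein receptors to degradation, was the 1 member called lower. It was at 13.8, 13.6 and 15.8 CPM in 2D cells and at 0.706, 0.585 and 0.945 CPM in 3D cells. The log2 fold change was -4.25 (SE 0.17, adjusted p = 1.6e-12, edgeR's quasi-likelihood test), or 19.0-fold lower. In the other mammosphere groups MYLIP lay between 0.542 and 1.42 CPM, also below every 2D library.

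The exporter ABCA1, which loads cholesterol onto apolipoprotein, was at 0.310, 0.487 and 0.478 CPM in 2D cells and at 3.16, 2.63 and 2.34 CPM in 3D cells. Levels were low in both groups, but they did not overlap (log2 fold change 2.64, SE 0.26, adjusted p = 2.0e-07, edgeR). ABCG1, the partner exporter, was not tested. The table gives no value for it in the 6 2D and 3D libraries, which was read as 0, and 0 counts in 12 of the others. It had 4 counts in GO-203 replicate 3, 2 in tet-MUC1shRNA DOX replicate 3 and 2 in tet-MYCshRNA DOX replicate 3. A recorded count of 0 allows up to 3 counts, or 0.0301 to 0.0789 CPM depending on the library, and this covers counting error only.

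Among genes that handle cholesterol from lysosomes, NPC1, a membrane protein of sterol exit, rose from 92.7 ± 2.78 to 170 ± 4.54 CPM (SD, n = 3), and LIPA, the acid lipase, from 176 ± 10.2 to 389 ± 17.3 CPM. NPC2, the soluble partner of NPC1, and STARD4, a cytosolic sterol carrier, passed the adjusted p with log2 fold changes of 0.51 and 0.52, under the fold minimum. SOAT1, which esterifies cholesterol for storage, was at 169 ± 7.74 CPM in 2D cells and 161 ± 4.17 CPM in 3D cells (log2 fold change -0.08, adjusted p = 0.277, edgeR).

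The direction for some members depended on which mammospheres stood against 2D cells. When the vehicle group of the tet-MUC1shRNA line took the place of 3D cells, 27 members were called, 25 of them higher. PMVK and SOAT1, not called in 3D cells, were then called, PMVK lower (log2 fold change -1.18, adjusted p = 6.3e-07, edgeR) and SOAT1 higher (0.98, adjusted p = 5.9e-11, edgeR). FDFT1, SQLE, SCAP, NPC2 and STARD4 were also called higher there, whereas LSS missed the fold minimum (0.24). With the vehicle group of the tet-MYCshRNA line 13 were called, 12 higher. LSS, TM7SF2, SREBF2 and SQLE then had log2 fold changes below 0 (-0.33, -0.31, -0.23 and -0.04) in place of those above 0 in 3D cells. MVD, DHCR7, IDI1, MSMO1, MVK and LIPA, called in 3D cells, stayed above 0 but missed the fold minimum (0.57, 0.5, 0.49, 0.24, 0.23 and 0.22). The share of all genes called was not computed for either vehicle group, so the counts are not read as particular to the members. The vehicle groups differ from 3D cells in the hairpin vector and DMSO, and, by its titles, the MYC line also in passage. INSIG1, INSIG2, HMGCS1, CYP51A1 and ABCA1 were higher, and MYLIP lower, than in 2D cells with each of the 3 kinds of mammosphere.

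**Figure D2:**
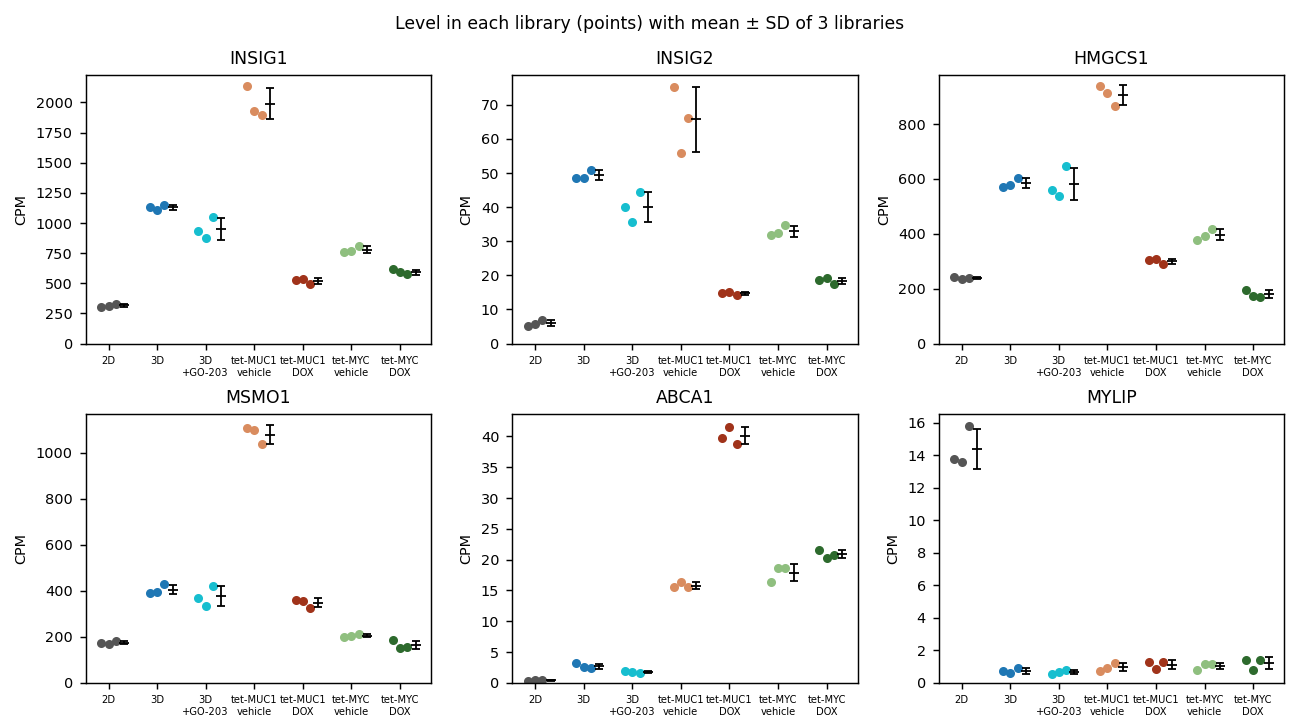
CPM of INSIG1, INSIG2, HMGCS1, MSMO1, ABCA1 and MYLIP in each library (points, by group) with the mean ± SD of 3 libraries (black). MSMO1 was at 1040 to 1110 CPM in vehicle-treated tet-MUC1shRNA mammospheres and at 325 to 362 CPM with DOX, and ABCA1 was at 38.8 to 41.6 CPM with DOX in that line.

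On MUC1 silencing 9 of the 18 synthesis genes and 2 of the 4 sensing genes were called lower, and ABCA1 was called higher. Of 29 members tested, 12 were called lower and 1 higher, where 14.6% of the 19220 genes tested were called lower and 17.6% higher. The median log2 fold change was -0.52 over the members and 0.02 over all genes. All 11 genes of the squalene and sterol arm had a negative log2 fold change, from -1.61 to -0.27, and 5 of them were called. In the mevalonate arm 4 of 7 were called lower, and in the remaining 3 the log2 fold change was between -0.19 and 0.06. Scaling by library size alone, which moves the median of all genes from 0.02 to 0.19, left 7 members called lower.

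INSIG2 fell from 75.1, 56.0 and 66.2 CPM with vehicle to 14.7, 15 and 14.3 CPM with DOX (log2 fold change -2.14, SE 0.081, adjusted p = 6.3e-15, edgeR). INSIG1 fell from 2140, 1930 and 1900 CPM to 529, 534 and 492 CPM (log2 fold change -1.92, SE 0.047, adjusted p = 1.0e-17, edgeR). In both genes the DOX libraries still lay above the 2D libraries. SREBF2 had a log2 fold change of -0.45 and SCAP one of 0.23, past the adjusted p and under the fold minimum.

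MSMO1, which removes methyl groups from the sterol ring, fell from 1110, 1100 and 1040 CPM to 362, 358 and 325 CPM (log2 fold change -1.61, SE 0.045, adjusted p = 7.3e-17, edgeR). HMGCS1 fell from 937, 912 and 865 CPM to 304, 307 and 289 CPM (log2 fold change -1.57, SE 0.043, adjusted p = 4.5e-17, edgeR). IDI1, which converts isopentenyl to dimethylallyl diphosphate, fell from 458, 452 and 465 CPM to 209, 209 and 194 CPM (log2 fold change -1.14, SE 0.041, adjusted p = 2.8e-15, edgeR). No DOX library reached the lowest vehicle library in these genes. In HMGCS1, 37.7% of exon bases are antisense to another gene, and the strand setting of the counting is not given in the sources used here.

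The other genes called lower were the sterol carrier STARD4 (log2 fold change -1.09), MVD (-0.97), CYP51A1 (-0.74), FDPS (-0.70), EBP (-0.69), TM7SF2 (-0.66) and FDFT1 (-0.63). Scaled by library size alone, the last 5 of these missed the fold minimum, with log2 fold changes of -0.57, -0.54, -0.52, -0.50 and -0.46. With at least 10 counts in every library FDFT1 was also not called (-0.58). SQLE, NSDHL, SC5D, DHCR7, LSS, HSD17B7, MVK and ACAT2 passed the adjusted p with log2 fold changes between -0.56 and -0.12. So did LIPA (-0.52), SOAT1 (-0.25) and NPC1 (0.29). PMVK, MYLIP and NPC2 had log2 fold changes of 0.06, 0.23 and 0.05, with adjusted p-values of 0.728, 0.506 and 0.444 (edgeR).

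ABCA1 moved the other way, from 15.5, 16.3 and 15.5 CPM with vehicle to 39.8, 41.6 and 38.8 CPM with DOX (log2 fold change 1.37, SE 0.063, adjusted p = 1.4e-13, edgeR). The vehicle libraries of this line already lay above the 3D libraries. The mesenchymal markers moved in opposite directions, CDH2 from 11.3 to 12.9 CPM with vehicle to 73.4 to 74.7 CPM with DOX, and SPARC from 388 to 396 CPM with vehicle to 199 to 216 CPM with DOX. PECAM1 was at 3.95 to 4.14 CPM with vehicle and at 2.59 to 3.36 CPM with DOX. The markers' part in the result was not tested.

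**Figure D3:**
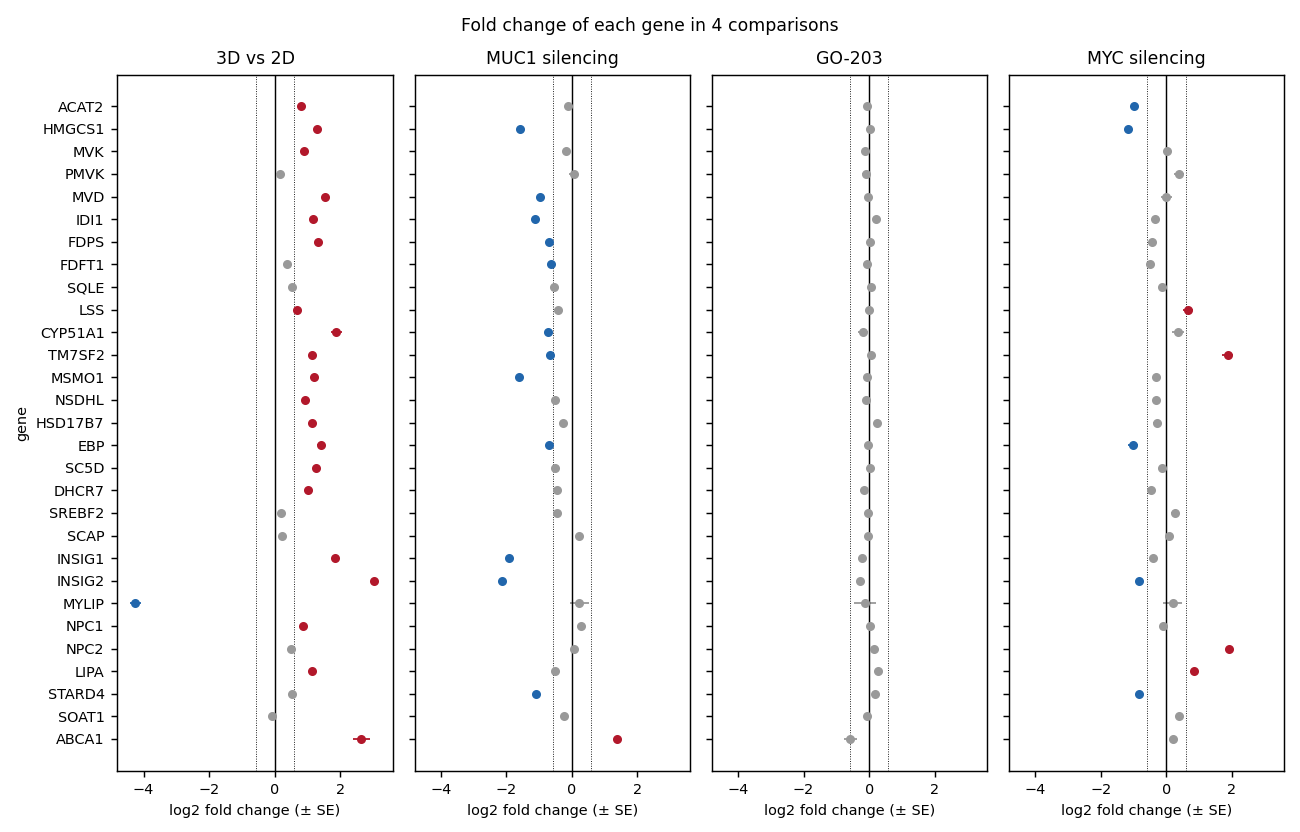
Log2 fold change with its standard error for 29 members (rows) in 3D vs. 2D cells, on MUC1 silencing, with GO-203 and on MYC silencing; red was called higher, blue called lower, grey not called, and dotted lines mark a 1.5-fold change. Points lie right of 0 for 27 members in 3D vs. 2D cells and left of 0 for 23 members on MUC1 silencing, and cluster near 0 with GO-203.

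With GO-203, which acts on the MUC1-C protein, no member was called. Fewer genes changed in all, with 3.61% of the 18488 genes tested called higher and 2.02% lower. The median log2 fold change was -0.04 over the members and 0.02 over all genes. By edgeR's quasi-likelihood test 0 of 29 members passed both thresholds, 10 had an unadjusted p below 0.05, and DESeq2 called 1, ABCA1. The share of all genes at that unadjusted p was not computed. At the adjusted p alone 4 members were higher and 4 lower, where 11.1% of all genes were higher and 12.9% lower. The mesenchymal marker SPARC was at 274 to 296 CPM in 3D cells and at 406 to 481 CPM with GO-203, with no overlap, and its part in these values was not tested.

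The 4 lower members were INSIG1, INSIG2, DHCR7 and ABCA1. INSIG2 was at 48.6, 48.6 and 50.9 CPM in 3D cells and at 40.1, 35.6 and 44.4 CPM with GO-203 (log2 fold change -0.27, SE 0.063, adjusted p = 0.0039, edgeR). INSIG1 was at 873 to 1050 CPM with GO-203, below the 1110 to 1150 CPM of 3D cells (log2 fold change -0.21). DHCR7, the reductase of the last step, had a log2 fold change of -0.16. ABCA1 was at 1.90, 1.83 and 1.60 CPM with GO-203 against 3.16, 2.63 and 2.34 CPM (log2 fold change -0.58, SE 0.20, adjusted p = 0.0462, edgeR), just short of the fold minimum.

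The 4 higher members were LIPA (log2 fold change 0.27), HSD17B7 (0.23), IDI1 (0.22) and STARD4 (0.19). LIPA was at 428 to 483 CPM with GO-203 and at 378 to 409 CPM without it, with no overlap. The 21 members that missed the adjusted p had log2 fold changes between -0.18 (CYP51A1) and 0.14 (NPC2). These comparisons and those of 3D vs. 2D cells share the same 3D libraries.

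In the tet-MYCshRNA line the library of DOX replicate 1 stood apart from the others of its group. A chi-square comparison of its counts with replicates 2 and 3 over all genes gave 52.8 and 36.3 per degree of freedom, against 19.5 between replicates 2 and 3 and at most 21 in the other groups. Among the 29 members it had the lowest level of the 3 libraries for 14 and the highest for 10. Without it 9 members were called on MYC silencing, 4 higher and 5 lower, as many as with it.

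On MYC silencing the members split. Of 29 tested, 4 were called higher and 5 lower, where 20.6% of the 19951 genes tested were called higher and 17.1% lower, so the members' share was below that of all genes on the higher side and about equal to it on the lower side. The median log2 fold change was -0.13 over the members and 0.01 over all genes. Markers moved as well, SPARC from 197 to 199 CPM with vehicle to 336 to 377 CPM with DOX, PECAM1 from 6.42 to 7.16 to 8.66 to 10.0 CPM, and CDH2 from 21.5 to 23.1 to 24.7 to 27.2 CPM. Their part in the result was not tested.

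The 5 lower members included early enzymes of the pathway. HMGCS1 fell from 378, 393 and 419 CPM with vehicle to 196, 172 and 170 CPM with DOX (log2 fold change -1.16, SE 0.075, adjusted p = 6.7e-07, edgeR). ACAT2, the thiolase that makes acetoacetyl-CoA, fell from 140, 133 and 132 CPM to 68.2, 66.6 and 71.7 CPM (log2 fold change -0.99, SE 0.062, adjusted p = 5.2e-07, edgeR). Of its exon bases, 22.2% are antisense to other genes. EBP fell from 12.2, 11.6 and 9.06 CPM to 4.76, 6.02 and 5.56 CPM (log2 fold change -1.03, SE 0.15, adjusted p = 1.7e-04, edgeR). INSIG2 fell from 31.7, 32.3 and 34.7 CPM to 18.6, 19.3 and 17.4 CPM (log2 fold change -0.85, SE 0.087, adjusted p = 1.6e-05, edgeR), and the groups of these 4 genes did not overlap. STARD4 fell from 142 ± 7.99 to 79.9 ± 9.31 CPM (SD, n = 3).

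The 4 higher members were NPC2, TM7SF2, LIPA and LSS. NPC2, which hands cholesterol to NPC1 in the lysosome, rose from 39.3, 36.4 and 35.9 CPM to 126, 148 and 154 CPM (log2 fold change 1.92, SE 0.085, adjusted p = 5.8e-08, edgeR). TM7SF2, a sterol reductase, rose from 10.7, 8.78 and 10.5 CPM to 28.1, 42.8 and 40.4 CPM (log2 fold change 1.87, SE 0.16, adjusted p = 3.8e-06, edgeR). LIPA rose from 205 ± 10.0 to 374 ± 11.5 CPM (SD, n = 3), so that both a lysosomal lipase and a lysosomal sterol carrier were higher with DOX. NPC1, also of the lysosome, was not called, at 325 ± 10.9 CPM with vehicle and 305 ± 25.3 CPM with DOX (log2 fold change -0.11, adjusted p = 0.201, edgeR).

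LSS was at 55.7, 53.1 and 50.5 CPM with vehicle and at 66.5, 105 and 83.7 CPM with DOX (log2 fold change 0.66, SE 0.14, adjusted p = 0.00205, edgeR). Without replicate 2 of the DOX group its log2 fold change was 0.48 and it was not called. Without DOX replicate 1 it was 0.80. Among members not called, INSIG1 (log2 fold change -0.41), FDFT1 (-0.51), DHCR7 (-0.48), FDPS (-0.44), IDI1 (-0.35), MSMO1 (-0.33), NSDHL (-0.31) and HSD17B7 (-0.29) passed the adjusted p on the lower side. PMVK (0.39), SOAT1 (0.39), SREBF2 (0.26) and ABCA1 (0.20) passed it on the higher side. The remaining 8 members had log2 fold changes between -0.14 (SC5D) and 0.35 (CYP51A1).

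Summed over the 18 synthesis genes, the counts give a compact view of the groups. The sum, which weights long and abundant transcripts most, was 2170 to 2270 CPM in 2D cells, 4000 to 4240 CPM in 3D cells and 3720 to 4320 CPM with GO-203. It was 5600 to 5990 CPM with vehicle and 2990 to 3250 CPM with DOX in the tet-MUC1shRNA line. In the tet-MYCshRNA line it was 2910 to 2990 CPM with vehicle and 2250 to 2310 CPM with DOX. The vehicle and DOX libraries did not overlap in either line, whereas the GO-203 libraries overlapped the 3D libraries.

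**Figure D4:**
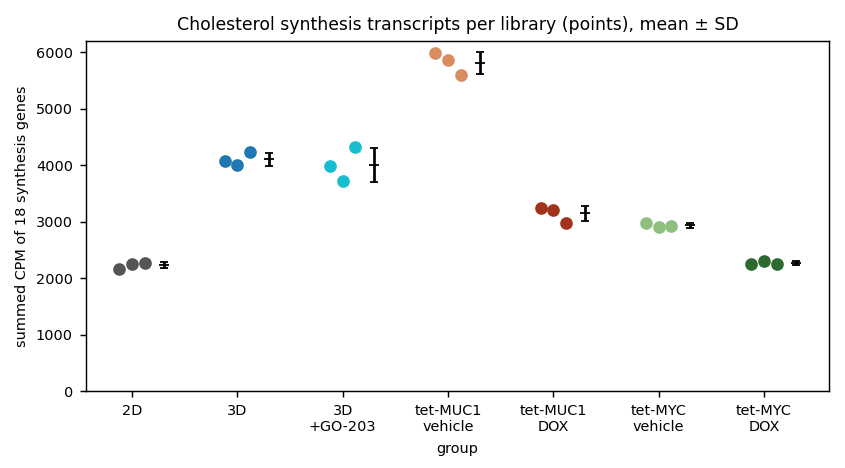
Summed CPM of the 18 synthesis genes in each library (points, by group) with the mean ± SD of 3 libraries (black). The 2D libraries lay at 2170 to 2270 CPM, and the vehicle-treated tet-MUC1shRNA libraries, at 5600 to 5990 CPM, were above all others.

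The effects of MUC1 and MYC silencing were compared by testing their difference over the 12 tet libraries, which share no library between the lines. Of 29 members tested, the log2 fold change on MUC1 silencing minus that on MYC silencing was called below 0 for 12 and above 0 for 2. Over the 21585 genes tested, 20.3% were called below 0 and 19.1% above. The median difference was -0.39 over the members and 0.05 over all genes. Without tet-MYCshRNA DOX replicate 1, 13 members were called, and SOAT1 was not (-0.57). By their titles the lines differed in passage as well as in hairpin, and MYC fell less than MUC1 in its own line, and these cannot be told apart. MUC1 itself was called higher on MYC silencing, from 69.0 ± 3.84 to 167 ± 27.7 CPM (SD, n = 3; log2 fold change 1.25, adjusted p = 5.1e-06, edgeR), so its level moved in opposite directions in the 2 lines. MYC rose on MUC1 silencing, under the fold minimum, from 245 ± 8.54 to 286 ± 11.6 CPM (log2 fold change 0.25, adjusted p = 5.0e-05, edgeR).

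TM7SF2 differed most, with a difference of -2.55 (SE 0.19, adjusted p = 4.5e-09, edgeR), since it fell from 23.5, 21.9 and 19.6 CPM to 13.8, 14.3 and 12.1 CPM on MUC1 silencing and rose on MYC silencing. NPC2 differed by -1.89 (SE 0.10, adjusted p = 6.7e-11, edgeR) and was at 85.6, 84.1 and 84.4 CPM with vehicle and at 88.5, 89.2 and 80.1 CPM with DOX in the MUC1 line. LIPA differed by -1.38 (SE 0.08, adjusted p = 1.5e-10, edgeR), from 357, 336 and 359 CPM to 246, 251 and 224 CPM in the MUC1 line and from 205, 195 and 215 CPM to 373, 386 and 363 CPM in the MYC line. In these 3 genes the values in the MYC line moved upwards.

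INSIG1 differed by -1.52 (SE 0.079, adjusted p = 3.9e-11, edgeR), INSIG2 by -1.30 (SE 0.13, adjusted p = 1.8e-07, edgeR) and MSMO1 by -1.29 (SE 0.097, adjusted p = 4.2e-09, edgeR). Each of them had a negative log2 fold change in both lines, and the larger one on MUC1 silencing. INSIG1 was at 756, 764 and 810 CPM with vehicle and at 616, 590 and 574 CPM with DOX in the MYC line. MSMO1 was at 200 to 212 CPM with vehicle and at 187, 152 and 157 CPM with DOX in the MYC line. CYP51A1, LSS, MVD, IDI1, SREBF2 and SOAT1 differed by -1.10, -1.09, -0.99, -0.81, -0.72 and -0.65.

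ABCA1 differed by 1.16 (SE 0.11, adjusted p = 7.5e-08, edgeR) and was at 16.4, 18.7 and 18.7 CPM with vehicle and at 21.6, 20.3 and 20.7 CPM with DOX in the MYC line. ACAT2 differed by 0.86, as its log2 fold change was -0.12 on MUC1 silencing and -0.99 on MYC silencing. HMGCS1, which fell in both lines, differed by -0.42 (adjusted p = 5.1e-04, edgeR), under the fold minimum, and STARD4, which also fell in both, by -0.25.

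**Figure D5:**
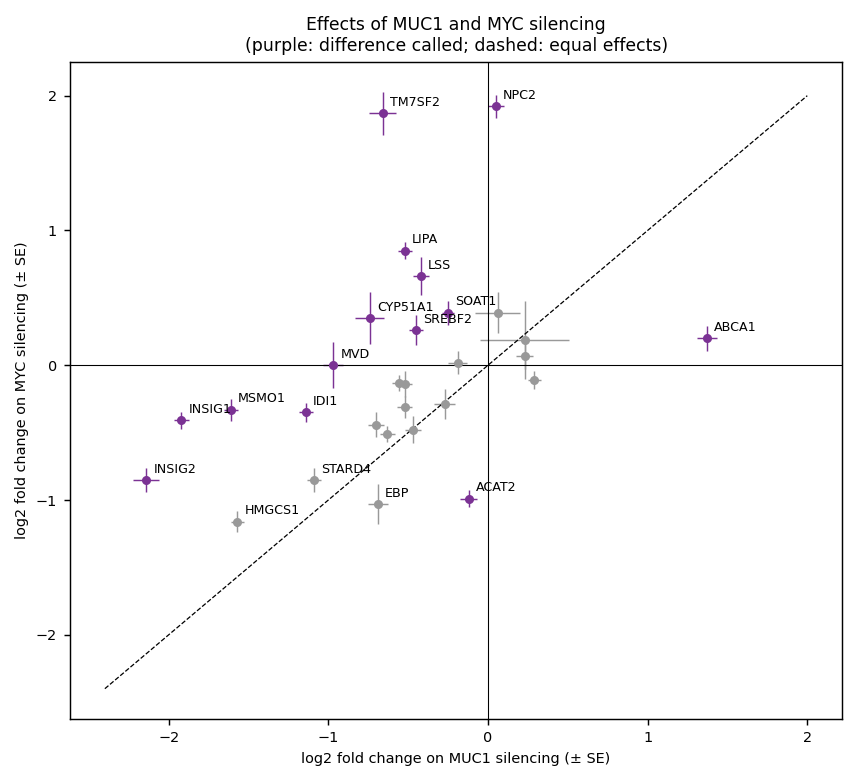
Log2 fold change with its standard error on MUC1 silencing (horizontal) against that on MYC silencing (vertical) for 29 members; purple marks a called difference between the lines and the dashed line equal effects. TM7SF2, LIPA and LSS lie left of and above 0, HMGCS1 and STARD4 lie below and left of 0 close to the dashed line, and ABCA1 lies to the right.

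A further list of 35 genes of the same biology, none of them members, covered isoprenoid branches, SREBP and INSIG processing, LXR and its targets, sterol transport and receptors, and oxysterol and ester enzymes. In 3D vs. 2D cells 7 of the 31 tested were called higher and 4 lower (median log2 fold change 0.05), beside 17.9% and 21.1% of all genes. NR1H3, which encodes an LXR receptor, rose from 0.698 ± 0.273 to 9.88 ± 1.26 CPM (SD, n = 3; log2 fold change 3.84), and the lipoprotein receptor SCARB1 from a range of 18.6 to 21.9 CPM to one of 80.8 to 87.8 CPM (2.06). Among the 4 lower genes, GRAMD1B, a sterol transfer protein, was at 0.410 to 0.643 CPM in 2D cells and at 0 to 0.208 CPM in 3D cells. It passed the filter on low counts only through the 2D libraries, where it was higher, so its call is no support for a fall.

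On MUC1 silencing 3 of 31 were called higher and 6 lower (median -0.16), beside 17.6% and 14.6% of all genes. Of the 6 genes for SREBP and INSIG processing, 3 were called lower. GRAMD1B rose from 2.92 ± 0.590 to 9.87 ± 0.390 CPM (SD, n = 3; log2 fold change 1.78) and SMPDL3A, an LXR target, from 1.77 ± 0.131 to 5.23 ± 0.558 CPM (1.59). The lipoprotein receptor VLDLR fell from 67.8 ± 9.82 to 23.5 ± 1.89 CPM (-1.5).

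With GO-203 1 of 30 was called lower, beside 2.02% of all genes. It was NCEH1, a cholesteryl ester hydrolase, which fell from 98.1 ± 2.49 to 59.9 ± 5.36 CPM (SD, n = 3; log2 fold change -0.68). On MYC silencing 4 of 31 were called higher and 6 lower (median 0.17), beside 20.6% and 17.1% of all genes. The 4 higher were the 4 genes of this list under LXR and its targets, whereas the members ABCA1 and MYLIP, also LXR targets, were not called (log2 fold changes 0.20 and 0.19). Of the 4, NR1H3 rose from 2.13 ± 0.250 to 5.12 ± 0.857 CPM (log2 fold change 1.24) and LPCAT3, which remodels phospholipids, from 19.0 ± 0.611 to 43.9 ± 6.07 CPM (1.19). In LPCAT3, 66.0% of exon bases are antisense to EMG1, so its level is uncertain. PDSS1, of the ubiquinone branch, fell from 20.7 ± 1.36 to 7.16 ± 1.82 CPM (-1.55). Between the silencing effects, the difference was called above 0 for 4 of 32 of these genes and below 0 for 7, beside 19.1% and 20.3% of all genes, with NCEH1 at 1.69, NR1H3 at -1.39 and ERLIN2, an INSIG-associated protein, at -1.37.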

How the data were processed

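The 21 libraries were stranded mRNA libraries of BT-549 cultures in 7 groups of 3. Per the labels and the methods, the authors aligned reads to GRCh38 with STAR (2.7.3a in the submitters' processing notes) and counted them with featureCounts, and they deposited raw counts per gene without normalization. Cells with no value, each missing over a whole block of libraries, were read as 0.

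In R 4.3.3, each pair of groups was fitted on its own 6 libraries with edgeR 4.0.16 (filterByExpr, TMM factors, quasi-likelihood test, Benjamini-Hochberg over all genes tested), and the difference of silencing effects as an interaction over 12 libraries. p-values measure only the spread between these cultures. Labels came from the sample titles and treatments. Replicate libraries were checked for duplicates (chi-square per degree of freedom 4.36 to 52.8 over 21 pairs, the highest between tet-MYCshRNA DOX replicates 1 and 2, none counted as 1 sample), and the procedure was tested on simulated data. The members and gene lists were chosen with earlier results of these data known.

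Per comparison, the 6 called members with the largest absolute log2 fold change were given in every library (for the interaction, MSMO1's tet-MYCshRNA vehicle values as a range), and up to 3 called genes of the further pathway list were named. Positions and overlaps are from GENCODE release 44, promoters from RefSeq. Alternatives were DESeq2 1.42.0, RLE factors, library size alone, other count filters, all 21 libraries in 1 fit, the replicate block, other thresholds, other mammosphere controls and leaving out each library.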

Additional observations from a re-analysis of the deposited data

Results flagged for a closer look

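Results are listed here because the effects of MUC1 and MYC silencing differed by a test of the difference itself (edgeR's interaction term over 12 libraries, adjusted p below 0.1 and a ratio of fold changes above 1.5). As log2 fold change on MUC1 silencing minus that on MYC silencing, the difference was -2.55 for TM7SF2, -1.89 for NPC2, -1.52 for INSIG1, -1.38 for LIPA, -1.30 for INSIG2 and -1.29 for MSMO1. It was -1.10 for CYP51A1, -1.09 for LSS, -0.99 for MVD, -0.81 for IDI1, -0.72 for SREBF2 and -0.65 for SOAT1. It was above 0 for ABCA1, at 1.16, and for ACAT2, at 0.86. SOAT1 was not called without tet-MYCshRNA DOX replicate 1 (-0.57), with at least 10 counts in every library (-0.58) or scaled by library size alone (-0.45), and SREBF2 was not called under the last of these (-0.52). Scaled by library size alone, NPC1 was called above 0 as well (0.60, against 0.39 with TMM factors), which made 3 members above 0 and 10 below. The smaller fall of MYC in its own line, the passage of that line as its titles give it and DOX itself were not tested as causes.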

How the results depend on the processing

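The number of members called was 21 in 3D vs. 2D cells, 13 on MUC1 silencing, 0 with GO-203, 9 on MYC silencing and 14 for the difference between the silencing effects. The replicate block gave the same numbers, 21, 13, 0, 9 and 14. Same-numbered cultures did not deviate together in the mean (mean correlations between -0.08 and 0.04), so replicate numbers were not taken to pair them. The block lowered edgeR's estimate of variation between cultures with GO-203 (0.0873 to 0.0741) and on MUC1 silencing (0.0637 to 0.0589). It raised the estimate in 3D vs. 2D cells (0.0895 to 0.0957), on MYC silencing (0.127 to 0.156) and for the difference (0.103 to 0.119). Whether cultures pair in some comparisons is not settled by these values. When single libraries were left out, the numbers of members called were 21 to 22, 13 to 13, 0 to 1, 8 to 9 and 13 to 14. With the adjusted p alone 26, 8, 21 and 22 members passed on MUC1 silencing, with GO-203, on MYC silencing and for the difference. Under a log2 minimum of 1.5 either way 6 passed in 3D vs. 2D cells, 4 on MUC1 silencing, 2 on MYC silencing and 3 for the difference. For other thresholds and mammosphere controls the share of all genes was computed only with GO-203 at the adjusted p alone. Their other counts are therefore not read as particular to the members. Library size alone gave 8 members on MUC1 silencing, and the median of all genes moved with it. With GO-203, DESeq2, RLE factors, no filter beyond 1 count and all 21 libraries in 1 fit each called 1, ABCA1 (log2 fold change -0.61 to -0.59), as did leaving out 3D replicate 2 or 3 or GO-203 replicate 1 or 2. With tet-MYCshRNA vehicle in place of 3D cells 13 members were called, and the log2 fold change turned sign for TM7SF2 (-0.31), LSS (-0.33), SREBF2 (-0.23) and SQLE (-0.04). With tet-MUC1shRNA vehicle it turned for PMVK (-1.18) and SOAT1 (0.98). On MUC1 silencing ACAT2 was at 0.04 with library size alone, and PMVK ranged from -0.03 to 0.19 over the left-out libraries. The causes of these changes were not tested. Of the 1672 member values recomputed under alternatives, 1631 kept direction and call. Low counts limit MYLIP in mammospheres, ABCA1 in 2D cells and ABCG1 throughout.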
